A study of Macaca mulatta with 24 samples.

Results

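Inflammasomes are protein complexes that assemble in the cytosol of blood and tissue cells when a sensor meets a microbial or damage signal. The sensor recruits the adaptor ASC, encoded by PYCARD, which brings in pro-caspase-1, and active caspase-1 matures interleukin-1β and interleukin-18 and cuts gasdermin D, whose fragment forms pores in the membrane. NOD1 and NOD2 are relatives of these sensors that read fragments of bacterial cell wall and signal through the kinase RIPK2 to NF-κB instead. Here 10 genes of this system were followed in the blood of irradiated rhesus macaques: the sensors NLRP3, NLRP1, NLRC4 and AIM2, the receptors NOD1 and NOD2, the adaptor gene PYCARD, the inflammatory caspases CASP1 and CASP4, and the pore-forming effector GSDMD. The members were every non-control array probe that carried 1 of these 10 gene names, 21 probes of the 43603 on the array, whose probes carry 15191 distinct gene symbols.

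Whole blood RNA, depleted of globin transcripts, was hybridized to 24 one-colour arrays of rhesus probes. The animals were adult Chinese-origin rhesus macaques of both sexes, with no gene modified and no agent given besides total body irradiation with 4 Gy. The labels name X-rays and put the first blood at day 0, while the paper's methods name a cobalt gamma source and put it in the days before exposure. There were 7 arrays before irradiation (4 males, 3 females), 4 at day 3 (3 males, 1 female), 6 at day 5 (4 males, 2 females) and 7 at day 7 (4 males, 3 females), from 7 animals of which 4 gave all 4 arrays. Animals are called by the replicate number of the labels, which do not themselves tie a number to an animal. The controls are the same animals before exposure, so time in the study and repeated bleeding cannot be told apart from radiation, and sham-irradiated animals were not analysed here.

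Values are log2 of the scanner's processed signal, an intensity, with each array shifted to the median array. Probes that 4 or more of the 24 arrays showed well above background were tested, and a probe was called when its Benjamini-Hochberg adjusted p over all probes tested was under 0.005 in limma (two-sided). Of the 21 member probes 19 were tested, and 27138 of all probes. The 2 untested probes, of NOD1 and NOD2, were well above background on no array. Where a gene has several probes, the brightest over all arrays stands for it unless another is named. Probes differ in brightness for the same amount of RNA, so levels are compared between arrays and never between probes.

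Scanning took 2 sessions. In session 1 were 6 arrays each from before irradiation and from day 7, and in session 2 every day 3 and day 5 array together with both arrays of animal 5, 1 pre-irradiation and 1 day 7. Session and day therefore cannot be told apart for days 3 and 5 beyond that 1 pre-irradiation array, and values against it are given with the results. Animal 5 has no day 3 or day 5 array, so every difference within an animal at these days also crosses the sessions. Between 48.3% and 61.2% of the probes of an array were well above background, no member spot was saturated, and precision is limited by how many arrays there are.

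Calls among the system's transcripts fell mostly at days 3 and 5, and all were higher. All 10 brightest probes had a positive log2 change at day 3 and at day 5 (at day 5, 8 of 10 under normexp background correction and 9 of 10 with scan session as a block), and 7 of 10 at day 7 (9 of 10 under quantile normalization and under normexp, where PYCARD and CASP1 turned). At day 3, 8 of 19 member probes were called, all higher, against 13.5% of all probes in either direction and 5.44% higher. At day 5, 9 of 19 were called, all higher, against 16.7% of all probes and 7.16% higher. At day 7, 1 of 19 was called, higher, against 10.9% and 3.6%. Of the 19 probes 3, the dimmest of NLRP1, NOD1 and NOD2, were dark on every control array and entered the test through irradiated arrays only. Over the 16 probes well above background on at least 1 control array, 7, 7 and 1 were called on the 3 days, against 13.6%, 16.8% and 10.8% of all such probes and 4.95%, 6.47% and 2.97% called higher. The median log2 change of the 10 brightest probes was 1.01, 0.95 and 0.42 on the 3 days, where that of all probes tested was 0.02 on each. Every array of the day lay above all pre-irradiation arrays for 8.66%, 5.66% and 2.57% of all probes tested, shares that stand beside each such separation below. Only GSDMD was called on every day. NLRP1 and NOD2 were called at days 3 and 5, NOD1 at day 3 and AIM2 at day 5, while NLRP3, NLRC4, PYCARD, CASP1 and CASP4 were called on no day in this fit.

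**Figure D1:**
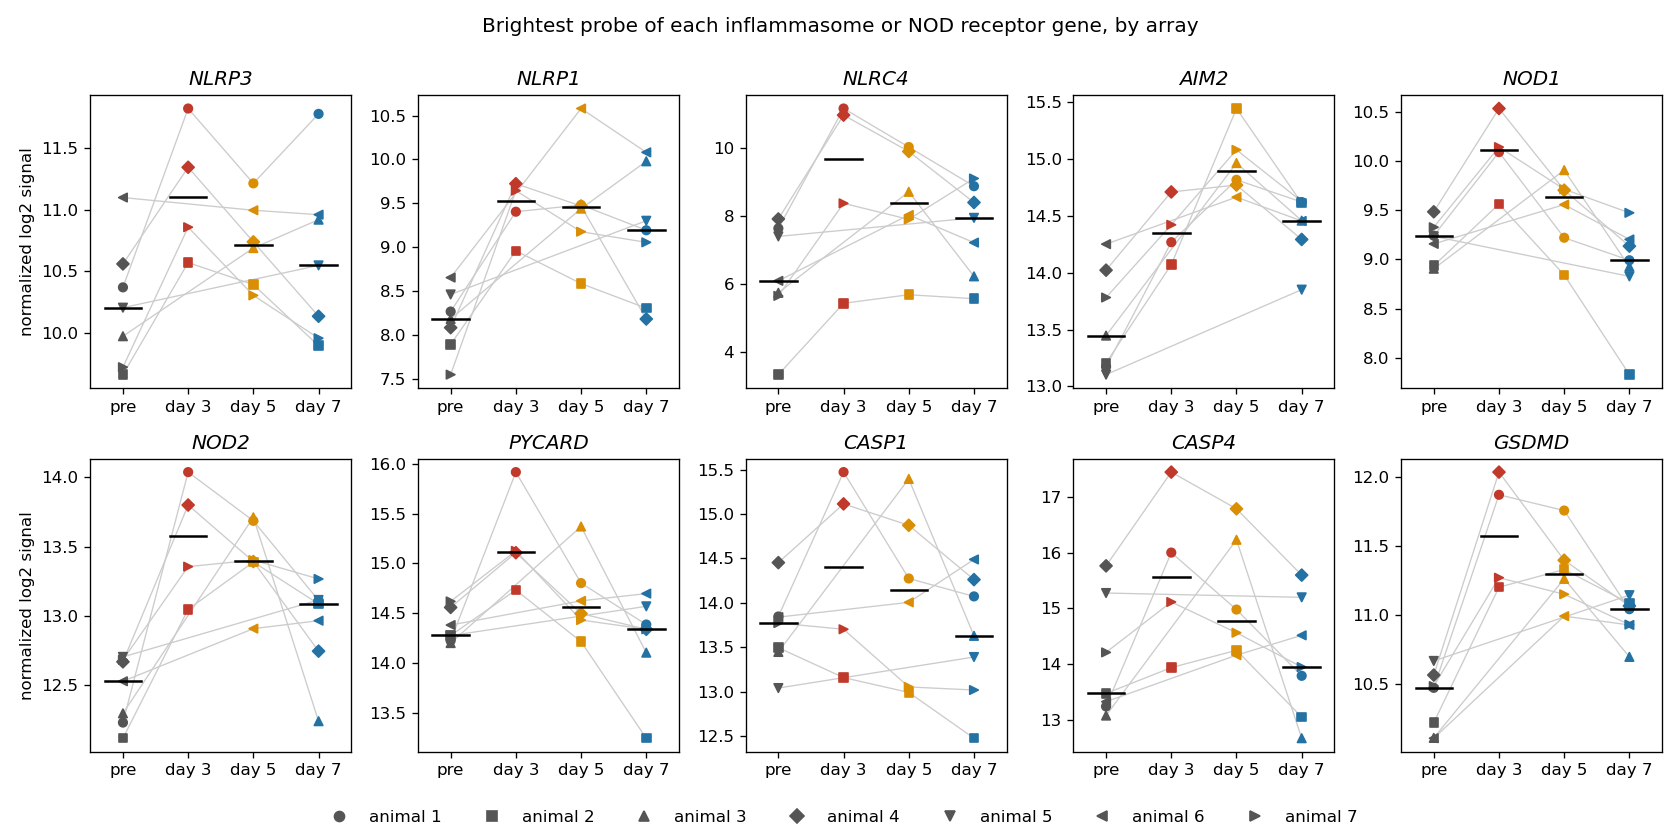
Normalized log2 signal (vertical axes, each panel with its own range) of the brightest probe of the 10 genes on each array before irradiation and at days 3, 5 and 7 (horizontal axes). Each marker is an animal, grey lines join the arrays of 1 animal and black bars are group medians; GSDMD at every day lies above all 7 pre-irradiation arrays, while CASP4 and NLRC4 spread widely within each group.

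Blood is a mixture, and in bulk RNA fewer cells of a type and less RNA per cell cannot be told apart. Lists of lineage genes moved on the same arrays. The mean log2 level of 9 monocyte genes lay between 11.9 and 12.6 in the controls, between 13.3 and 13.9 at day 3, between 12.8 and 14.2 at day 5 and between 12.2 and 13.2 at day 7, with 2, 2 and 0 of the 9 called higher on the 3 days. That of 10 neutrophil genes ran from 10.1 to 11.5 before irradiation and from 11.1 to 12.5, 11.1 to 12.3 and 10.6 to 12.9 after it, with 2, 2 and 1 called higher. All 9 B cell genes tested were called lower on every day, with median log2 changes of -3.53, -3.92 and -3.67. Of 8 erythroid genes 6, 8 and 7 were called lower, with medians of -3.57, -6.08 and -4.87. Of 7 platelet genes 7, 2 and 0 were called higher. Of 9 T cell genes 2, 1 and 0 were called lower, with medians of -0.50, -0.19 and 0.22. None of 8 NK cell genes was called in limma, with medians of 0.41, 0.18 and 0.08. Before irradiation 9 of 9 B cell, 8 of 9 T cell, 8 of 8 NK cell, 8 of 9 monocyte, 8 of 10 neutrophil, 6 of 7 platelet and 8 of 8 erythroid genes were well above background on every array, and 1 neutrophil and 1 platelet gene on none. The 13 interferon-stimulated genes tested had median log2 changes of 1.40, 1.58 and 0.43, with none called on these days in limma. Over the 24 arrays, which are not independent, Pearson's r of the 10 members with a list's mean level ran from 0.41 to 0.86 for monocytes, 0.0062 to 0.70 for neutrophils, 0.23 to 0.69 for platelets, -0.28 to 0.20 for NK cells, -0.79 to -0.28 for T cells, -0.80 to -0.086 for B cells, -0.85 to -0.20 for erythroid cells and 0.15 to 0.72 for interferon-stimulated genes. GSDMD (0.86) and NOD2 (0.81) were closest to the monocyte list. The part of these shifts in the results below was not tested.

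The probes that follow are shown because they read NLRP1 and NOD2 at other places than the brightest probes, together with the NOD2 probe that stayed dark. Each is the 60-base probe from the scanner output, read 5′ to 3′, with its place in the rheMac2 build of the rhesus genome and the base of the array's transcript model at which it starts. No annotation of that build was used, so exon and UTR are not stated. The NOD2 probes listed stand on another transcript model than the brightest NOD2 probe, so their bases cannot be compared with its own.
NLRP1, chr16:5298603-5298662, minus strand, base 3937: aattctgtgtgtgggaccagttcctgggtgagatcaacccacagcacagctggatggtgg
NLRP1, chr16:5300092-5300151, minus strand, base 2576: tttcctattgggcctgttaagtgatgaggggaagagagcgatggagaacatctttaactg
NOD2, chr20:48943838-48943897, plus strand, base 2806: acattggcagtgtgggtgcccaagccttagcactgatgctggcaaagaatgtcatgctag
NOD2, chr20:48936938-48936997, plus strand, base 2456: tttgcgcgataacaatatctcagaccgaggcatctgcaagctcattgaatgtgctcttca
NOD2, chr20:48937247-48937306, plus strand, base 2542: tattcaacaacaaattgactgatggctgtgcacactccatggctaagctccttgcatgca
NOD2, chr20:48931624-48931683, plus strand, base 712: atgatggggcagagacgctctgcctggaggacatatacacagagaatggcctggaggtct

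NLRP1, a sensor that forms inflammasomes when its own amino-terminal part is degraded, rose at days 3 and 5. Its brightest probe (chr16:5297376-5297435) read 7.55, 8.18 and 8.65 (lowest, median and highest log2 signal) before irradiation. At day 3 the 4 arrays read 9.40, 8.96, 9.72 and 9.64 in animals 1, 2, 4 and 7, all above every pre-irradiation array, as for 8.66% of all probes tested. The day 5 arrays ran from 8.58 through a median of 9.45 to 10.58, with 5 of 6 above all pre-irradiation arrays, and the day 7 arrays from 8.18 through 9.19 to 10.08, with 5 of 7 above. The log2 change was 1.28 (SE 0.23, adjusted p = 0.00168) at day 3, 1.30 (SE 0.27, adjusted p = 0.00235) at day 5 and 1.0 (SE 0.29, adjusted p = 0.0202) at day 7, the last not past the threshold. Every animal was above its own first array, in 4 of 4 pairs at day 3, 6 of 6 at day 5 and 7 of 7 at day 7, from 0.10 to 1.80 log2 units on the last day.

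The other two NLRP1 probes differ in brightness. The probe at base 3937 changed by 1.22 at day 3 (adjusted p = 0.00203) and by 1.05 at day 5 (adjusted p = 0.003), and its log2 change was 0.18 at day 7 (adjusted p = 0.722). The probe at base 2576 was well above background on 0 of 7 pre-irradiation arrays, 4 of 4 at day 3, 5 of 6 at day 5 and 4 of 7 at day 7. It was at least 4.59-fold higher at day 3 (limma adjusted p = 0.000471) and at least 3.26-fold higher at day 5 (adjusted p = 0.00125), a bound because the controls were not well above background. This probe passed the filter through irradiated arrays alone, so its calls add no support to those of the brighter probes.

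AIM2, which senses double-stranded DNA in the cytosol, rose at day 5. Its levels were 13.10, 13.45 and 14.25 (lowest, median, highest) before irradiation. The day 3 arrays read 14.27, 14.07, 14.71 and 14.42 in animals 1, 2, 4 and 7, 3 of them above all controls. At day 5 they ran from 14.67 through 14.89 to 15.45, and all 6 lay above every pre-irradiation array, as for 5.66% of all probes tested. At day 7 they ran from 13.85 through 14.46 to 14.63, with 6 of 7 above. Its log2 change was 0.80 (SE 0.25, adjusted p = 0.0262) at day 3, 1.39 (SE 0.21, adjusted p = 0.000278) at day 5 and 0.85 (SE 0.21, adjusted p = 0.00725) at day 7, and each animal with both arrays was higher on each day. The day 5 call was lost under normexp background correction (log2 change 0.72, adjusted p = 0.355) and with scan session as a block (1.86, adjusted p = 0.0156). A call appeared at day 7 under quantile normalization, with a log2 change of 1.21 (adjusted p = 0.000915), and with a stricter filter on dim probes, all 24 arrays in 1 fit and scan session as a block (adjusted p = 0.00488, 0.00148 and 0.00359).

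NLRC4, the sensor that joins NAIP proteins to respond to bacterial flagellin and secretion systems, had the widest spread. The 7 pre-irradiation arrays ran from 3.33 through 6.08 to 7.90, and 5 of 7 were well above background. At day 3 the arrays read 11.15, 5.43, 10.95 and 8.36 in animals 1, 2, 4 and 7, so that 3 of 4 lay above all controls and 1 lay among them. Day 5 ran from 5.68 through 8.36 to 10.01 and day 7 from 5.56 through 7.93 to 9.09. The log2 changes of 2.73 (95% confidence interval 0.32 to 5.14, adjusted p = 0.0727), 2.12 (0.42 to 3.82, adjusted p = 0.0507) and 1.36 (-0.14 to 2.87, adjusted p = 0.165) were not called.

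Within animals NLRC4 was higher in every pair. At day 3 it was 3.52, 2.10, 3.05 and 2.72 log2 units in animals 1, 2, 4 and 7. At day 5 the 6 pairs ran from 1.93 to 2.97, and at day 7 the 7 pairs from 0.48 to 3.45. Animal 2 started from the lowest control, at 3.33, and only 5 of 7 controls were well above background. The size of a difference from such a dim control is uncertain. With the animal as a block NLRC4 was called at day 3 (log2 change 2.85, SE 0.27, adjusted p = 0.00257) and at day 5 (2.31, SE 0.17, adjusted p = 0.000114), and at day 7 it was not (1.36, SE 0.35, adjusted p = 0.0189). The pairs and the blocked fits of days 3 and 5 set session 1 controls against session 2 arrays, so they cannot tell session from day. Against the 1 pre-irradiation array of the same scan session, at 7.39, 3 of 4 day 3 and 5 of 6 day 5 arrays were higher. With session as a block the log2 change was 1.58 and 0.97, and neither was a call.

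NLRP3, the sensor that responds to potassium efflux and membrane damage, was not called by either probe. It ran from 9.66 through 10.21 to 11.10 before irradiation. On the 4 arrays of day 3 it was 11.82, 10.57, 11.34 and 10.86 in animals 1, 2, 4 and 7, of which 2 lay above all controls. The log2 change was 0.92 (adjusted p = 0.0351), 0.49 (0.121) and 0.37 (0.384) at days 3, 5 and 7, and the second probe gave 1.55 (3 arrays, 1 spot left out as an outlier, adjusted p = 0.0174), 0.83 (0.0529) and 0.40 (0.375). All 4 animals were higher at day 3 than before, by 0.78 to 1.45. The mean of both probes was called at day 3 (1.43, adjusted p = 0.00469), but the array with the left-out spot then held the brighter probe alone. Over arrays with both probes, an alternative added after seeing the data, the mean was not called (1.33, adjusted p = 0.0135).

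**Figure D2:**
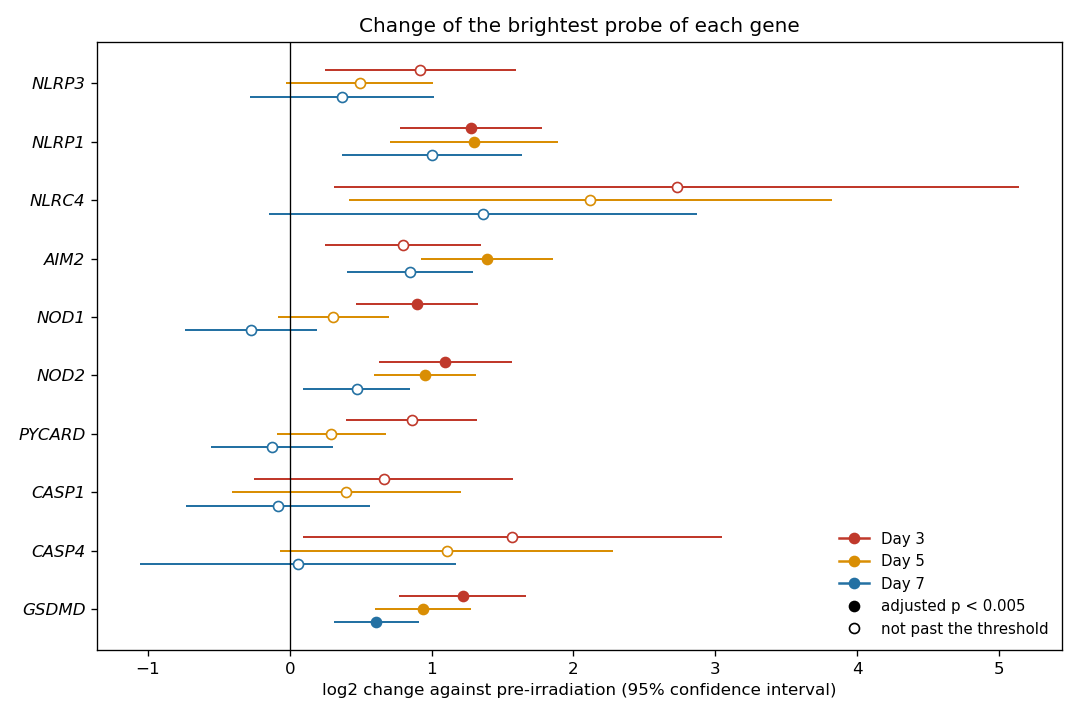
Log2 change against the 7 pre-irradiation arrays (horizontal axis) of the brightest probe of the 10 genes (rows) at days 3, 5 and 7, with 95% confidence intervals from limma; filled circles passed an adjusted p under 0.005. GSDMD is filled on all 3 days, and the NLRC4 and CASP4 intervals are the widest.

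Both NOD receptors were called higher at day 3, and NOD2 at day 5 as well. NOD2, which senses muramyl dipeptide, ran from 12.12 through 12.53 to 12.71 before irradiation. The day 3 arrays read 14.04, 13.05, 13.80 and 13.36 in animals 1, 2, 4 and 7, and day 5 ran from 12.91 through 13.40 to 13.71, so that all 10 arrays of these days lay above every control. Of all probes tested, 8.66% were so separated at day 3 and 5.66% at day 5. Day 7 ran from 12.24 through 13.09 to 13.27, with 6 of 7 above. Its log2 change was 1.10 (SE 0.21, adjusted p = 0.00253), 0.95 (SE 0.16, adjusted p = 0.000608) and 0.47 (SE 0.18, adjusted p = 0.057), the last not called.

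The other tested NOD2 probes moved with the brightest. The probe at base 2806 changed by 1.73 at day 3 (3 arrays, 1 spot left out as an outlier, adjusted p = 0.00232) and by 1.48 at day 5 (adjusted p = 0.000132). The probe at base 2456 changed by 1.30 (adjusted p = 0.00451) and 1.29 (adjusted p = 0.00146). The probe at base 2542 was well above background on 0 of 7 pre-irradiation arrays, 3 of 4 at day 3, 5 of 6 at day 5 and 6 of 7 at day 7, and was at least 2.39-fold higher at day 5 (limma adjusted p = 0.00135), without a call at day 3 (adjusted p = 0.0293). It too passed the filter through irradiated arrays alone, and its call adds no support. The probe at base 712 was well above background on no array of any group, so NOD2 was read by 4 of its 5 probes.

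NOD1, which senses peptidoglycan fragments carrying meso-diaminopimelic acid, was called at day 3 in its brightest probe. It ran from 8.91 through 9.24 to 9.49 before irradiation. At day 3 the arrays read 10.09, 9.56, 10.54 and 10.14 in animals 1, 2, 4 and 7, all above every control, as for 8.66% of all probes tested. Day 5 ran from 8.84 through 9.63 to 9.91, with 4 of 6 arrays above every control and 1 below, and day 7 from 7.83 through 8.99 to 9.47, with none above. The log2 change was 0.90 (SE 0.19, adjusted p = 0.00458), 0.31 (adjusted p = 0.2) and -0.27 (adjusted p = 0.37). The day 3 call was lost in most of the alternatives run, among them quantile normalization, scaling to the 75th percentile and the authors' normalized values (adjusted p = 0.00529, 0.00537 and 0.007). The day 5 level was not called against that of day 3 (log2 change -0.59, adjusted p = 0.473). The day 7 level was 1.17 log2 units below that of day 3, which did not pass the threshold in the fit of these 2 groups (adjusted p = 0.0226) and passed it when all 24 arrays entered 1 fit (adjusted p = 0.00211).

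The dimmer NOD1 probe was well above background on 0 of 7 arrays before irradiation, 4 of 4 at day 3, 5 of 6 at day 5 and 4 of 7 at day 7. Every day 5 array lay above all controls, and it was not called at day 3 (adjusted p = 0.00671) or day 5 (adjusted p = 0.0106), nor between those days (log2 change 0.65, adjusted p = 0.745). It was called at day 3 under a stricter filter on dim probes (adjusted p = 0.00468) and at day 5 with all 24 arrays in 1 fit (adjusted p = 0.00335), and it also passed the filter through irradiated arrays alone.

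**Figure D3:**
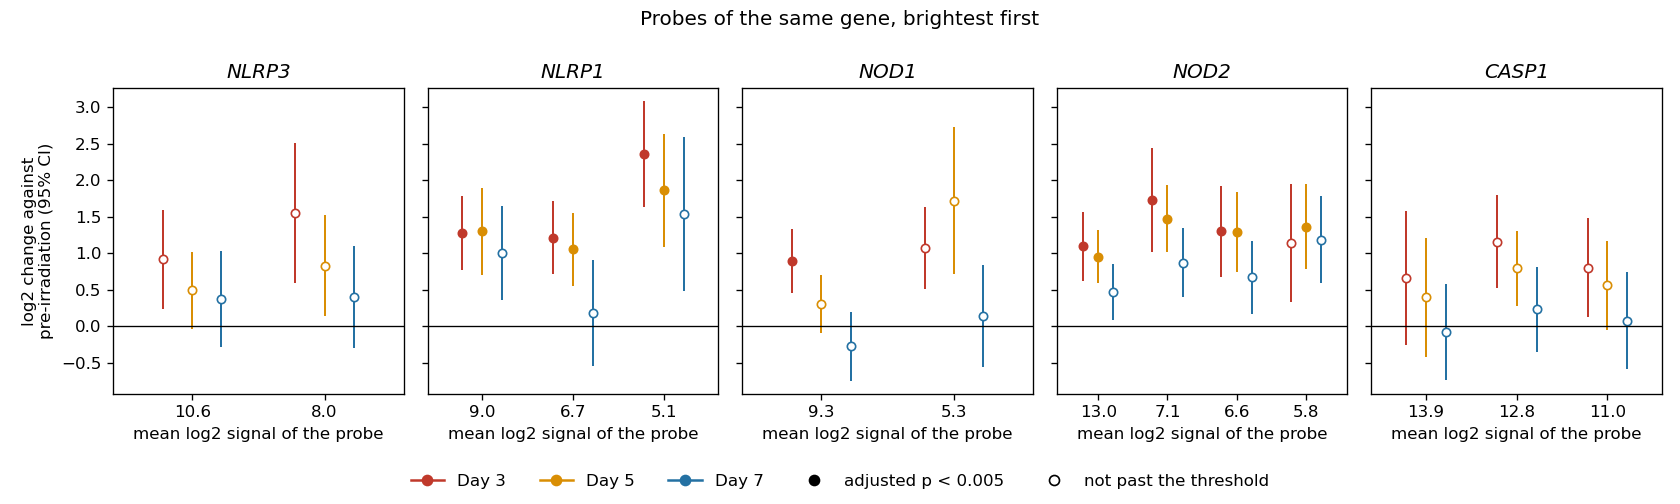
Log2 change against pre-irradiation (vertical axis, 95% confidence interval from limma) of each tested probe of the 5 genes with several, ordered by mean log2 signal (horizontal axis); filled circles passed an adjusted p under 0.005. All 3 NLRP1 probes are filled at days 3 and 5 and no CASP1 or NLRP3 probe is, and for the dimmest NLRP1, NOD1 and NOD2 probes, dark on all control arrays, the plotted change is the fitted value and not a bound.

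PYCARD, whose product ASC links sensor to caspase, lay above all controls at day 3, as 8.66% of all probes tested did, without a call. It ran from 14.20 through 14.28 to 14.62 before irradiation, and the day 3 arrays read 15.92, 14.73, 15.11 and 15.13 in animals 1, 2, 4 and 7. The log2 change of 0.86 (SE 0.21, adjusted p = 0.00836) missed the threshold and passed it under quantile normalization (0.94, adjusted p = 0.00153). At day 5 the log2 change was 0.29 (adjusted p = 0.211), with 3 of 6 pairs higher, and at day 7 -0.12 (adjusted p = 0.682), a sign that turned under other settings.

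With every animal in the fit, no probe of either inflammatory caspase was called on these days. The brightest CASP1 probe ran from 13.04 through 13.77 to 14.45 before irradiation, and the day 3 arrays read 15.47, 13.16, 15.11 and 13.70 in animals 1, 2, 4 and 7, so that 2 lay above all controls and 2 among them. Its log2 change was 0.66 (adjusted p = 0.23), 0.40 (0.429) and -0.08 (0.87), the last turning to 0.23 under quantile normalization, and 2 of 4, 4 of 6 and 4 of 7 pairs were higher. Its second probe gave 1.16 (adjusted p = 0.00876), 0.80 (0.0162) and 0.24 (0.536), with 4 of 4, 6 of 6 and 4 of 7 pairs higher. Without animal 2 the second probe was called at day 3 (1.41, adjusted p = 0.0042). The third gave 0.80 (0.057), 0.57 (0.127) and 0.08 (0.872), with 3 of 4, 5 of 6 and 4 of 7 pairs higher. The 3 probes stand on different transcript models of CASP1, and CASP1 has neighbouring CARD-only relatives of close sequence, so what each probe reads is uncertain.

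CASP4, which binds cytosolic lipopolysaccharide and cuts gasdermin D directly, spanned 13.08 to 15.76 before irradiation around a median of 13.48. On the 4 arrays of day 3 it was 16.00, 13.94, 17.44 and 15.12 in animals 1, 2, 4 and 7. Animals 4 and 5 stood apart before exposure, at 15.76 and 15.28 against 14.21 or less in the other 5, and again at day 7, at 15.60 and 15.20 against 14.52 or less. The log2 change of 1.57 (95% confidence interval 0.10 to 3.04, adjusted p = 0.0884), 1.11 (-0.06 to 2.27, adjusted p = 0.128) and 0.06 (-1.05 to 1.16, adjusted p = 0.947) was not called. Within animals it was higher in 4 of 4 pairs at day 3 and 6 of 6 at day 5, by 0.35 to 3.15, and in 2 of 7 at day 7. Against the same-session pre-irradiation array, at 15.28, 2 of 4 day 3 and 2 of 6 day 5 arrays were higher.

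GSDMD, the pore-forming substrate of these caspases, rose on every day. It ran from 10.11 through 10.47 to 10.67 before irradiation (chr8:146192459-146192518). The day 3 arrays read 11.87, 11.20, 12.04 and 11.27 in animals 1, 2, 4 and 7, day 5 ran from 10.99 through 11.30 to 11.76 and day 7 from 10.7 through 11.04 to 11.14. All 4, all 6 and all 7 arrays lay above every pre-irradiation array, a separation that 8.66%, 5.66% and 2.57% of all probes tested showed. The log2 change was 1.22 (SE 0.20, adjusted p = 0.0012), 0.94 (SE 0.15, adjusted p = 0.000448) and 0.61 (SE 0.14, adjusted p = 0.00451), and all 17 differences within animals were positive, from 0.45 to 1.47. The day 7 call was lost on the authors' normalized values (0.62, adjusted p = 0.0146). It was also lost with no filter on dim probes and with the slide as a block (adjusted p = 0.0139 and 0.00586).

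These calls have limits that the fits show. With the animal as a block, 2 of 19 probes were called at day 3, NLRC4 and the NLRP1 probe at base 2576, 9 at day 5, of which 8 were called without it, and 0 at day 7, where GSDMD had an adjusted p of 0.0128. Of all probes, 2.77%, 15.4% and 8.57% were called in that fit. At days 3 and 5 it also sets session 1 arrays against session 2 arrays. With scan session as a block, which rests on 1 pre-irradiation array, 0 were called at days 3 and 5, when 0.137% and 1.41% of all probes were; the log2 changes of GSDMD were then 0.93 and 0.65, of NOD2 0.86 and 0.71, of NLRP1 0.97 and 0.99, and of AIM2 1.27 and 1.86. Every day 3 and day 5 array lay above that array for GSDMD, NOD2, NLRP1, AIM2 and NLRP3. For NOD1, PYCARD and CASP1 all 4 day 3 arrays did, with 4, 5 and 5 of 6 at day 5. That array was the highest control for GSDMD (10.67) and NOD2 (12.71), where this repeats the separation from all controls. It was the lowest control for AIM2 (13.10) and CASP1 (13.04), where lying above it says little about session. The share of all probes above it is not given. In session 1 alone, which holds 6 arrays each before irradiation and at day 7, GSDMD changed by 0.63 (adjusted p = 0.00921), not past the threshold. Without animal 4 the day 3 count fell to 0, without animals 1, 3 and 7 to 2, 4 and 3, and the share of all probes called fell too, from 13.5% to 3.18% without animal 4 and to 5.15%, 8.83% and 6.61% without the others. The day 5 count fell to 4 and 5 without animals 1 and 3, with 10% and 11.9% of all probes called. The GSDMD call at day 7 was lost when any 1 of the 7 animals was left out (adjusted p from 0.0072 to 0.0186), and the 1 probe called without animal 4 was the NOD2 probe at base 2542 (log2 change 1.41, adjusted p = 0.00267). Under normexp background correction 0 member probes were called on any day, when 0.512%, 0.881% and 1.16% of all probes were. The log2 changes at day 3 were then 1.14 for GSDMD, 1.03 for NOD2, 0.95 for NLRP1 and 0.65 for NOD1, and at day 5 0.47 for GSDMD, 0.42 for NOD2, 0.84 for NLRP1 and 0.72 for AIM2.

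Between the days themselves no member probe was called by limma in the fit of each pair. At an unadjusted p under 0.05 2 of 19 differed for day 5 against day 3, 11 for day 7 against day 3 and 8 for day 7 against day 5, where 10%, 32.7% and 20.8% of all probes tested did. All 11 and all 8 of the latter were lower at day 7, as were 16.2% and 11.5% of all probes tested. At an adjusted p under 0.005, 0.0184%, 1.28% and 0.00368% of all probes were called. The 10 brightest probes were lower at day 7 than at day 3 in 9, with AIM2 the exception (0.05), and lower than at day 5 in all 10. The response of males and females was compared at day 7, where both sexes have arrays of every animal. Limma called 0 of 19 member probes at an adjusted p under 0.05 and 0 of 27134 probes in all, and 0 members had an unadjusted p under 0.05.

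Over the 24 arrays all 45 pairs of members correlated positively, with Pearson's r from 0.15 to 0.91 and a median of 0.55. The arrays come from 7 animals in 4 groups and are not independent, so this is a description. The closest pair was NOD2 and GSDMD (r = 0.91), followed by NOD1 and PYCARD (0.83), and the loosest AIM2 and PYCARD (0.15). Of 10985 named genes, those most like NOD2 were CD300A (0.93), SAMD9L (0.93) and GSDMD, those most like GSDMD were NOD2, FFAR2 (0.91) and TNFRSF14 (0.90), and those most like NLRP1 were TCF7L2 (0.92), CD180 (0.91) and STAT6 (0.91). AIM2 was most like AGK (0.91), DMXL2 (0.91) and NKTR (0.90), and NOD1 most like BATF3 (0.87), DESI1 (0.85) and DRAP1 (0.84).

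The other genes of the pathways were read from 4 lists, each gene by its brightest probe, and their counts stand beside the 13.5%, 16.7% and 10.9% of all probes called at days 3, 5 and 7, or 5.44%, 7.16% and 3.6% called higher. Of 10 other sensors tested, 0, 4 and 0 were called higher at days 3, 5 and 7 and none lower, with median log2 changes of 0.72, 0.72 and 0.09. The 4 at day 5 were NAIP, the partner of NLRC4 (1.70, adjusted p = 0.000675), MEFV, which encodes pyrin (1.58, adjusted p = 0.000608, 1 of 6 arrays left out as an outlier), NLRX1, a mitochondrial relative (1.48, adjusted p = 0.00405), and NLRC5, which drives MHC class I genes (0.99, adjusted p = 0.00457). NAIP also had every array above all controls at day 3, as 8.66% of all probes tested did, with a log2 change of 1.43 and an adjusted p of 0.0114.

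Of 20 genes of NOD signaling tested, 3 were called higher and 1 lower at day 3, 4 higher at day 5 and 1 higher at day 7, with medians of 0.07, 0.19 and 0.02. RBCK1, a subunit of the linear ubiquitin ligase, rose by 1.38 at day 3 (adjusted p = 0.00076) and 1.38 at day 5 (adjusted p = 2.87e-05). SLC15A3, a lysosomal peptide transporter, rose by 1.32 and 0.96 (adjusted p = 0.000523 and 0.000593). ATG16L1, the autophagy partner of NOD2, was called on every day, at 0.87, 1.02 and 0.88 (adjusted p = 0.00262, 8.42e-05 and 0.00122). BIRC3, the ubiquitin ligase cIAP2, was lower at day 3, with a log2 change of -1.50 (adjusted p = 0.000309). RIPK2, the kinase that both NOD receptors use, had log2 changes of 0.28, 0.49 and 0.22 (adjusted p = 0.195, 0.0169 and 0.271) and was not called.

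**Figure D4:**
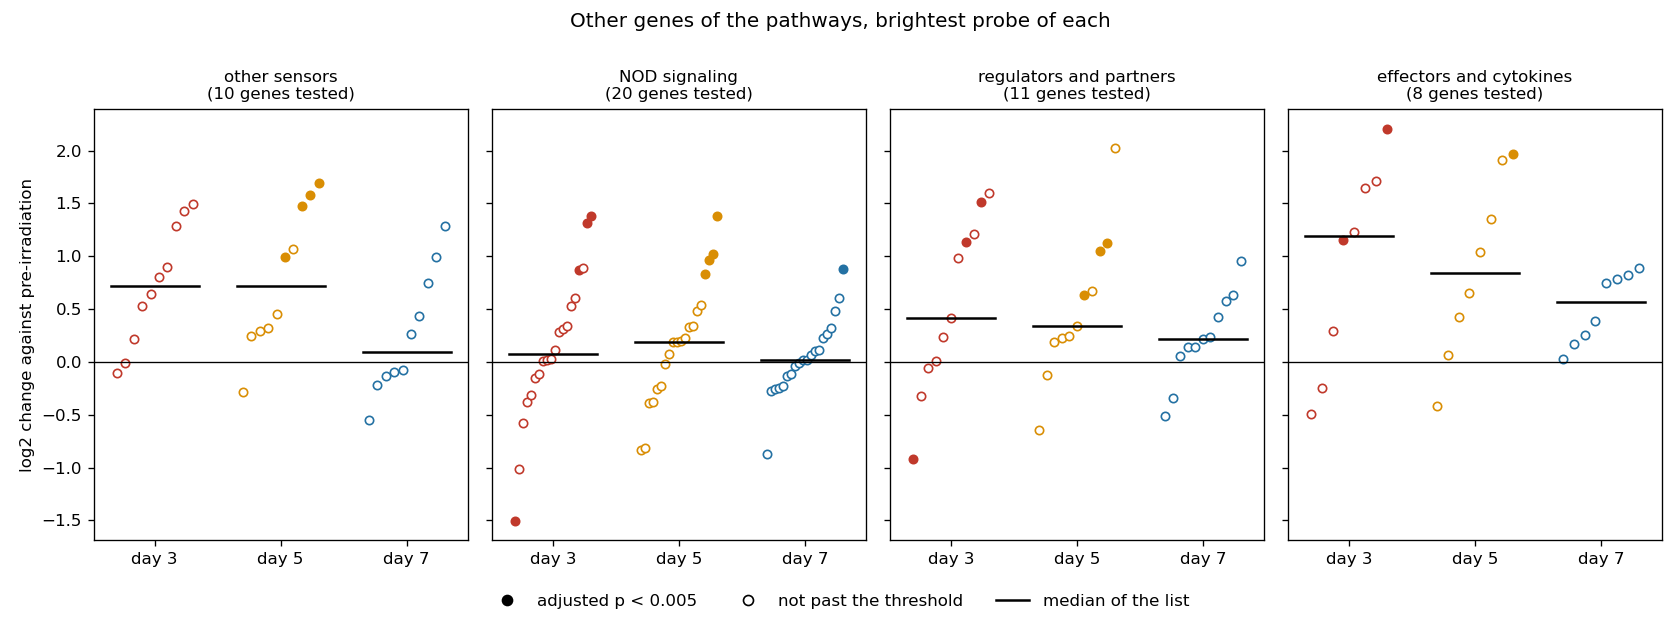
Log2 change against pre-irradiation (vertical axis) at days 3, 5 and 7 of the brightest probe of each tested gene in 4 lists of pathway genes; circles are genes in order of change, filled where the adjusted p was under 0.005, and black bars are list medians. The 10 other sensors have 4 filled circles at day 5 and none on the other days, and the medians of the 20 NOD signaling genes lie close to 0.

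Of 11 regulators and partners tested, 2 were called higher and 1 lower at day 3, 3 higher at day 5 and 0 at day 7. CTSB, the lysosomal protease cathepsin B, rose by 1.52 and 1.13 (adjusted p = 0.00166 and 0.00302) and TXNIP, a thioredoxin-binding protein that interacts with NLRP3, by 1.14 and 0.63 (adjusted p = 0.00162 and 0.00219). DPP9, a peptidase that restrains NLRP1, rose by 1.05 at day 5 (adjusted p = 0.00299), though 2 of 7 control arrays were well above background. HSP90AB1, a chaperone, was lower at day 3, with a log2 change of -0.92 (adjusted p = 0.00093). NEK7, the kinase that NLRP3 needs, had log2 changes of -0.06, 0.22 and 0.14 and was not called.

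Of 8 effectors and cytokines tested, 2, 1 and 0 were called higher on the 3 days and none lower. IL1B, the cytokine that caspase-1 matures, rose by 2.21 at day 3 (adjusted p = 0.0021) and 1.97 at day 5 (adjusted p = 0.000158), with every array of both days above all controls, and its log2 change at day 7 was 0.78 (adjusted p = 0.122). Of all probes tested, 8.66% were so separated at day 3 and 5.66% at day 5. NINJ1, which ruptures the membrane after gasdermin pores form, rose by 1.16 at day 3 (adjusted p = 0.00202). IL18, the other cytokine, had log2 changes of -0.50, 0.07 and 0.89 (adjusted p = 0.378, 0.902 and 0.118). IL1RN, the natural blocker of the interleukin-1 receptor, had changes of 1.71 and 1.35 at days 3 and 5, just outside the threshold (adjusted p = 0.00605 and 0.00647).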

How the data were processed

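RNA was measured on 24 arrays. The authors' scanner output, made with Feature Extraction 12.0.2.2 per the file headers (10.7 in the submitters' processing notes), holds a processed signal, an intensity with local background subtracted and gradients removed. The deposited series matrix holds the authors' log2 values normalized to the median array, and was used as an alternative only. The array is a rhesus design, while the paper's methods name a human one. Here log2 was taken, spots marked non-uniform or as outliers were left out, spots of a probe were averaged and arrays were shifted by -0.87 to 2.03 to the median array. The 2 groups of each comparison were fitted with limma 3.58.1 (R 4.3.3, statmod 1.5.0), checked on simulated data. Tables and figures used Python 3.11.15, pandas 2.3.3, numpy 2.4.6 and matplotlib 3.10.9.

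The labels number the replicates without naming animals. A number was taken here as 1 animal, since the same animals were bled on each day, the sex given for a number is the same on every day, and the deviations of same-numbered arrays from their group means correlated with r of 0.132 or more in every pairing with the pre-irradiation arrays. The genes and the 4 pathway lists, and the lineage lists, were chosen with earlier results of these data known. Named pathway genes are, per list, up to 4 of those called on any day, by size of change, and RIPK2, NEK7, IL18 and IL1RN were added after their values were seen. The 3 most alike genes are given by Pearson's r. Alternatives were other scalings, background correction, filters, spots, fits, blocks, thresholds, probe averaging and leaving out each animal.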

Additional observations from a re-analysis of the deposited data

Results flagged for a closer look

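Among the 40 combinations of the brightest probe and group, 3 had 1 array far from the rest, where chance gives about 1 in 20. In day 7 replicate 2 NOD1 read 227 (normalized signal) where the next lowest day 7 array read 454, and PYCARD read 9703 where the next read 17606. That array also had the largest shift to the median array, 2.03 on the log2 scale. Without it the log2 change at day 7 was -0.09 for NOD1 and 0.04 for PYCARD, and neither value was a call with or without it. In day 7 replicate 5 AIM2 read 14779 where the next lowest day 7 array read 20079; it is the 1 day 7 array of scan session 2.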

How the results depend on the processing

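The counts of called member probes moved most. Normexp background correction gave 0 on days 3, 5 and 7, and scan session as a block 0, 0 and 2. The slide as a block gave 0 on both days it could be fitted, 3 and 7, and at day 3 it called 0% of all probes tested. The animal as replicate block gave 2, 9 and 0. With all 24 arrays in 1 fit there were 5 at day 3, 4 at day 7 and 1 between days 7 and 3 (NOD1, lower), with 15.7%, 14.3% and 8.02% of all probes called. A threshold of 0.05 gave 15 at day 3, 7 at day 7 and 2 between days 7 and 3, with 35.7%, 27.6% and 16.1% of all probes. For day 7 alone quantile normalization gave 3, no filter on dim probes 0, a stricter filter 2, session 1 alone 0 and the fit without day 7 replicate 2, chosen after seeing the data, 0. On the authors' normalized values the day 7 count was 1, the NOD2 probe at base 2542 (adjusted p = 0.00425) in place of GSDMD. Leaving out each animal gave 0 to 7 probes at day 3, with 2, 4, 0 and 3 without animals 1, 3, 4 and 7, when 5.15%, 8.83%, 3.18% and 6.61% of all probes were called. It gave 4 to 9 at day 5, with 4 and 5 without animals 1 and 3, and 0 to 1 at day 7, where no fit kept the GSDMD call and the 1 probe, without animal 4, was of NOD2. The other day-to-day and sex counts stayed at 0 in the alternatives run.

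Of 648 alternative values of single genes, 16 changed sign, and none of these was a call. PYCARD at day 5 gave -0.27 under normexp, and at day 7 gave 0.29 (quantile), 0.033 (normexp) and from -0.20 to 0.044 as arrays were left out, above 0 without animal 2 (0.029) and without day 7 replicate 2 (0.044). CASP1 at day 5 gave -0.11 under normexp, and at day 7 gave 0.23 (quantile), 0.086 (normexp), 0.080 (mean of its probes, also over arrays with every probe) and from -0.20 to 0.11 as arrays were left out, above 0 without day 7 replicate 2 (0.11), animal 2 (0.077) and animal 7 (0.033). CASP4 gave -0.11 at day 5 with session as a block, and at day 7 from -0.13 to 0.23 as arrays were left out, below 0 without animals 1 (-0.024) and 6 (-0.13). The causes were not tested. No slide holds both groups for day 5 against pre-irradiation or day 7 against day 5, so there the slide entered as a random block, added after seeing the data, which left the counts at 9 and 0. Signal over background limits the dim NLRP1, NOD1 and NOD2 probes.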
